A study of Eptesicus fuscus and Canis lupus familiaris and Equus caballus with 4 samples.

Results

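The candidates described here are hairpins on the autosomes of horse and dog whose listed mature sequence has exactly 25 bases, the greatest length in either list. Each candidate is a genomic segment that is predicted to form a stem and loop as RNA and to which small RNA reads mapped, and its mature sequence is the stretch the program reported as the small RNA. They were chosen by the listed mature length, which comes from the reads, and by a chromosome name that is a number. This gave 126 of 439 horse candidates and 79 of 252 dog candidates, 205 in all out of 1453 candidates in the 3 lists of the series. Their number and length are therefore a description. No source used here says whether the program itself stopped at 25 bases.

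The series holds 4 small RNA libraries from testis of dog, horse and the bat Eptesicus fuscus, and 2 of them are used here. The groups are adult horse testis and adult dog testis, 1 library each, with no treatment named in the labels. Tissue was snap frozen, RNA was extracted with TRIzol, and the small RNA fraction was sequenced as 50 bp single-end reads. Breed, individual and cell composition are not given in the labels, and the lists hold no messenger RNA, so the tissue was not checked against marker genes. With no replicate library there is no test in any comparison, and intervals are exact Clopper-Pearson 95% intervals for shares, Newcombe 95% intervals for differences and order-statistic 95% intervals for medians. They cover counting error only and treat candidates as independent, although some candidates share the same reads.

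MicroRNAs are cut from hairpins by Drosha and Dicer and are loaded into Argonaute proteins, and a well-read hairpin often yields reads from both arms. The adult mammalian testis also holds piRNAs, which are longer, bind PIWI proteins and are made from long single-stranded transcripts and not from hairpins. Some piRNAs defend germ cells against transposons. A primary piRNA typically begins with U, and its partner in the amplification cycle typically carries A at base 10 and overlaps it on the opposite strand. Fragments of transfer RNA are a further class of small RNA of testis and sperm. The first base, base 10, arm, partner reads and read support were therefore compared between the 25-base candidates and the candidates of 20 to 24 bases on the same chromosomes, which numbered 202 and 102.

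The distinct 25-base sequences with most reads, 8 in each species, are shown first because they carry most of the reads. Base 1 and base 10 are in capitals, and U is written as T, as deposited. The horse sequences are, from most to fewest reads:
Horse Candidate_184: GttctcaggTtcgtcagcccatgag
Horse Candidate_550: CcttcacggTttcagggtcttgtac
Horse Candidate_681: TcttggaaaCagccactgtagaatg
Horse Candidate_374: ActcggcgtGgcgtcggtcgtggta
Horse Candidate_451: TgttgcagtTcgtcatcaacctgtg
Horse Candidate_149: AggcagtgtGttgttagctggctgc
Horse Candidate_129: AgtatgtctTctttccagcccccat
Horse Candidate_432: TagacaacaGtcctgatcctgggca
The dog sequences are:
Dog Candidate_49 and Candidate_237: CccagtgttCagactacctgttcag
Dog Candidate_248: CccagtgttTagactatctgttcag
Dog Candidate_38: TggacagtcAttgtatagaggatgg
Dog Candidate_112, Candidate_113, Candidate_114 and Candidate_116: TcgtcgctgAggcaggaccgacttc
Dog Candidate_152, Candidate_153 and Candidate_159: TctgaagctTtagcaggccccgagg
Dog Candidate_17: GtcaggatgGccgagtggtctaagg
Dog Candidate_298: TtgagaactGaattccatgggttgt
Dog Candidate_252: TcccaggacAtgagtgtaggacaca
Of the 8 horse sequences 3 began with U and 0 had A at base 10. Of the 8 dog sequences 5 began with U and 3 had A at base 10.

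The length class was the most populated one in both species. On horse autosomes 126 of 334 candidates had 25 bases, 51 had 24 and 59 had 23. On dog autosomes the numbers were 79 of 184, 33 and 31. Horse members lay on 27 chromosomes, with 15 on chromosome 1, and dog members on 28, with 10 on chromosome 16.

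**Figure D1:**
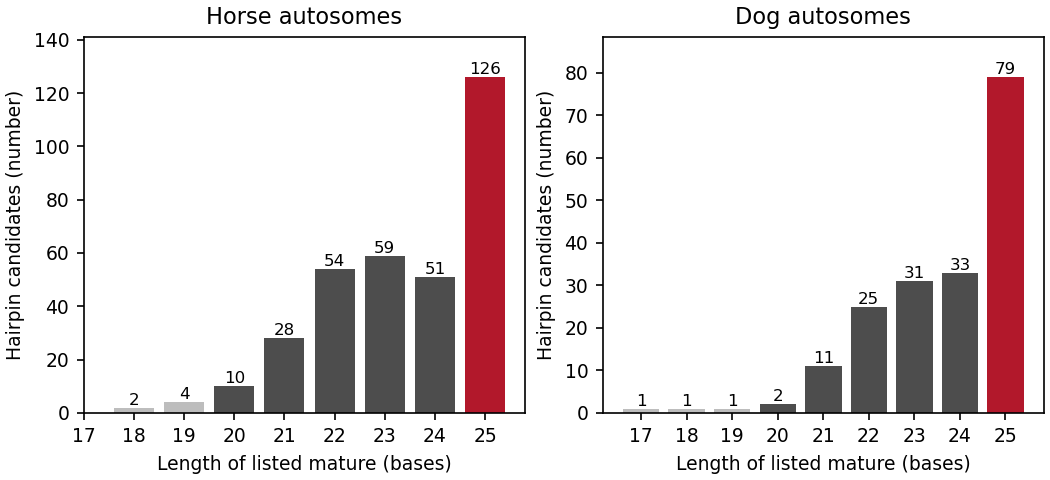
Number of autosomal hairpin candidates (y axis) by length of the listed mature sequence in bases (x axis) in horse and dog, with 25 bases in red, 20 to 24 bases in dark grey and shorter lengths in light grey. The bar at 25 bases holds 126 horse and 79 dog candidates and no longer length is listed.

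Just inside and just outside the length limit, the horse candidates of 25 and 24 bases both had a median of 3 reads and began with U in 76.2% and 51.0% of cases. The dog candidates of 25 and 24 bases had medians of 5 and 2 reads and began with U in 69.6% and 60.6%. All 5 models of the prediction program called 35.7% and 49.0% of these horse candidates, and 38.0% and 42.4% of the dog ones.

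The 25-base candidates rested less often on 1 read than shorter ones did. In the horse 32 of 126 rested on 1 read (25.4%, 18.1 to 33.9), against 98 of 202 shorter candidates (48.5%, 41.4 to 55.6), a difference of -23.1 percentage points (-32.8 to -12.4). In the dog 17 of 79 did (21.5%, 13.1 to 32.2), against 55 of 102 (53.9%, 43.8 to 63.8), a difference of -32.4 points (-44.5 to -18.3). Both differences are larger than their counting error. Candidates with more than 1 read sequence made up 62.7% of the horse members against 46.0% of shorter candidates, and 70.9% against 41.2% in the dog.

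The median was 3 reads (2 to 5) for horse members and 2 (1 to 2) for shorter horse candidates, and 5 reads (3 to 10) against 1 (1 to 2) in the dog. At least 10 reads were reached by 24.6% of horse members and 20.3% of shorter candidates, a difference of 4.31 points whose interval, -4.74 to 13.9, includes 0. In the dog the shares were 41.8% and 23.5%, a difference of 18.2 points (4.54 to 31.4). The most-read candidates of both species were nevertheless shorter ones. Horse Candidate_171, with 24 bases, had 5727 reads, while the first 25-base candidate had 1898, and dog Candidate_165, also with 24 bases and known from its sequence as the erythroid and muscle miRNA miR-486-5p, had 37280, while the first 25-base candidate had 984.

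**Figure D2:**
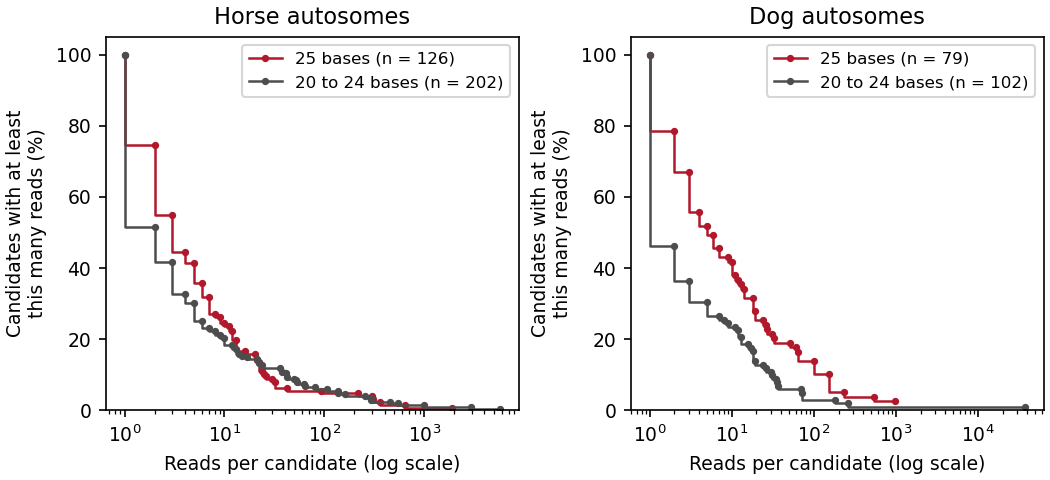
Share of candidates in percent (y axis) with at least the number of reads on the x axis (log scale), for 25-base candidates in red and 20 to 24-base candidates in grey, in horse and dog. At 2 reads the red line is above the grey one in both panels; the grey line reaches further right, to 5727 (horse) and 37280 reads (dog).

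Horse members summed to 4561 reads, or 25.7% of those at autosomal candidates, and dog members to 4355, or 10.2%. With each identical mature sequence counted once the sums were 4488 and 2675 reads, or 25.4% and 6.50%. Of the horse reads 41.6% came from Candidate_184 alone, and without it the sum was 2663. The dog share was set largely by Candidate_165, since the shorter dog candidates summed to 38461 reads with it and to 1181 without it.

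Identical 25-base sequences at several loci always carried the same read count. There were 7 such sets with 16 candidates in the horse and 6 sets with 15 candidates in the dog, and in each set every locus listed the same number of reads. The members therefore held 117 distinct sequences in the horse and 70 in the dog. Equal counts were also listed in all 3 sets of identical shorter sequences in the horse and all 5 in the dog. They are thus not particular to the members.

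U at the first base was more frequent among horse members than among shorter horse candidates. It was found in 96 of 126 horse members (76.2%, 67.8 to 83.3) and in 96 of 202 shorter candidates (47.5%, 40.5 to 54.7), a difference of 28.7 points (18.01 to 38.1). In the dog it was found in 55 of 79 members (69.6%, 58.2 to 79.5) and 63 of 102 shorter candidates (61.8%, 51.6 to 71.2), a difference of 7.86 points whose interval, -6.14 to 21.1, includes 0. The intervals of horse and dog members overlap.

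No other position of the members reached the U share of base 1. Over bases 2 to 25, U made up between 16.7% and 35.7% of a position in the horse, the highest at base 7, and between 12.7% and 45.6% in the dog, the highest at base 8. At the genomic base just before the mature sequence, U was found in 10.3% of horse members (5.61 to 16.997), against 22.8% of shorter candidates, and in 15.2% of dog members (8.10 to 25.03), against 17.6%. At that base C was the most frequent letter among members, with 40.5% in the horse and 34.2% in the dog, where A had 30.4%. Among shorter horse candidates C was also the most frequent letter, with 32.2%. Among shorter dog candidates C had 30.4% and G had 37.3%. A at that base was found in 22.2% of horse members (15.3 to 30.5) and 14.4% of shorter horse candidates (9.83 to 19.96). In the dog it was found in 30.4% of members (20.5 to 41.8) and 14.7% of shorter candidates (8.47 to 23.1).

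**Figure D3:**
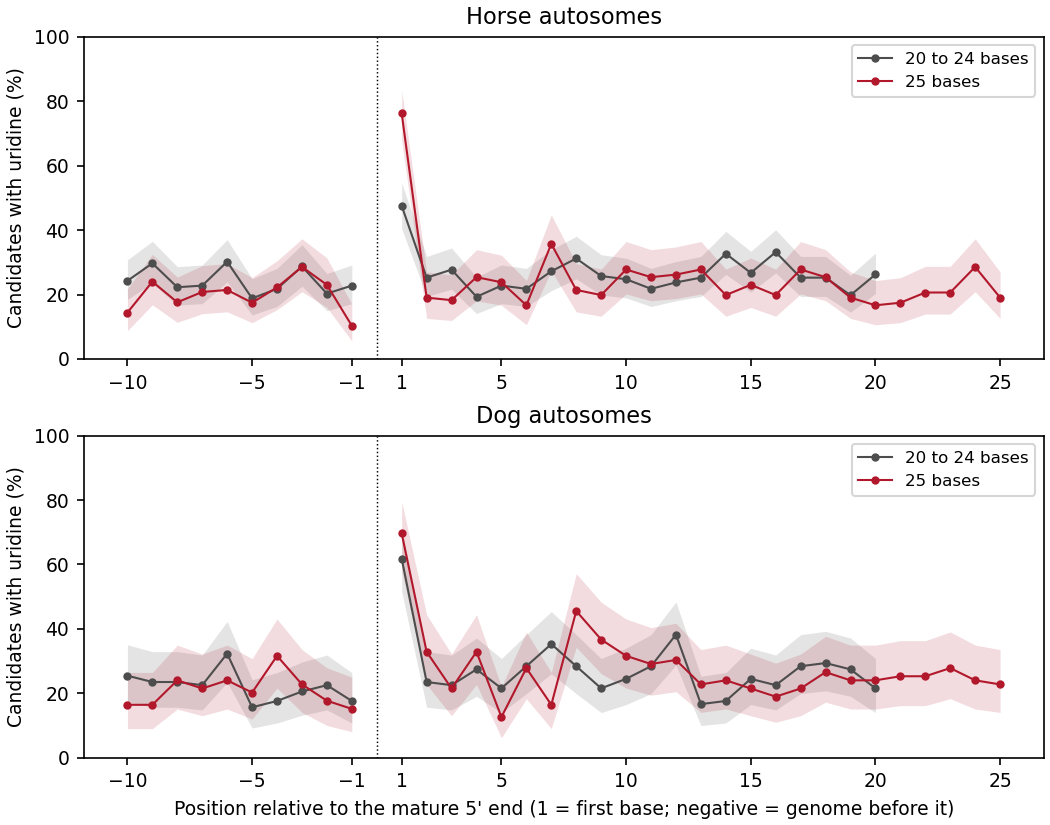
Share of candidates in percent with U (y axis) at each position from 10 bases before the mature 5′ end through base 25 (x axis), for 25-base candidates in red and 20 to 24-base candidates in grey (shown to base 20), with Clopper-Pearson 95% intervals shaded. The peak at base 1 stands at 76.2% and 47.5% in the horse and at 69.6% and 61.8% in the dog.

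Among members the first U was most frequent at 2 to 9 reads. Horse members with 1 read began with U in 23 of 32 cases (71.9%, 53.3 to 86.3), those with 2 to 9 reads in 55 of 63 (87.3%, 76.5 to 94.4) and those with at least 10 reads in 18 of 31 (58.1%, 39.1 to 75.5). In dog members the shares were 64.7% of 17, 82.8% of 29 and 60.6% of 33, and the intervals of all 3 classes overlap. In the horse, shorter candidates were below the members in each of these read classes, at 54.1%, 47.6% and 31.7%, although the intervals overlapped for 1 read and for at least 10 reads. In the dog the shorter candidates with 1 read began with U in 70.9%, above the members, and those with 2 to 9 and with at least 10 reads in 52.2% and 50.0%. With at least 10 reads the difference was 26.4 points (3.28 to 46.1) in the horse and 10.6 points (-14.5 to 34.3) in the dog. Horse members called by 4 models began with U in 82.7% and those called by all 5 in 64.4%, while dog members did so in 67.3% and 73.3%. By arm the shares were 78.1% on the 5′ arm and 74.2% on the 3′ arm for horse members, and 70.5% and 68.6% for dog members.

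A at base 10 differed between members and shorter candidates by less than the counting error. It was found in 23 of 126 horse members (18.3%, 11.9 to 26.1) and 43 of 202 shorter candidates (21.3%, 15.9 to 27.6), a difference of -3.03 points (-11.5 to 6.15). In the dog it was found in 21 of 79 members (26.6%, 17.3 to 37.7) and 17 of 102 shorter candidates (16.7%, 10.02 to 25.3), a difference of 9.92 points (-2.04 to 22.1). A at other positions of the members reached 27.8% in the horse, at base 3, and 26.6% in the dog, at base 6. U at base 1 together with A at base 10 occurred in 19 horse members (15.1%) and 23 of 202 shorter candidates (11.4%). In the dog it occurred in 16 members (20.3%) and 11 of 102 shorter candidates (10.8%). The intervals of members and shorter candidates overlapped in both species. No member's mature sequence overlapped another listed mature sequence on the opposite strand. A count of 0, its limit taken as 3 counts of the total and not as the Clopper-Pearson bound, allows up to 2.38% of the horse and 3.80% of the dog members. The same count is not given for shorter candidates. Reads outside the listed hairpins could not enter it, so it describes the lists only.

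The arm of the hairpin was near balance in the full sets. The mature sequence lay on the 5′ arm in 64 of 126 horse members (50.8%, 41.7 to 59.8) and 44 of 79 dog members (55.7%, 44.1 to 66.9), against 46.0% and 47.1% of shorter candidates. The differences of 4.75 points (-6.28 to 15.7) and 8.64 points (-5.95 to 22.7) have intervals that include 0. With chromosome X and unplaced sequence included, the horse shares were 97 of 173 and 110 of 258, a difference of 13.4 points (3.81 to 22.7). Dog members with at least 10 reads stood apart from this. Of these, 28 of 33 lay on the 5′ arm (84.8%), against 11 of 24 shorter candidates (45.8%), a difference of 39.02 points (14.3 to 58.9). Counting each identical sequence once, the shares were 21 of 25 (84.0%, 63.9 to 95.5) and 45.8% (25.6 to 67.2) in the dog and 48.3% of 29 and 39.02% of 41 in the horse.

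The share called by all 5 prediction models was lower among members in both species, with a small horse margin that depended on the setting and a dog interval that includes 0. The horse shares were 45 of 126 (35.7%, 27.4 to 44.7) and 95 of 202 (47.03%, 39.99 to 54.2), a difference of -11.3 points (-21.7 to -0.315), and the interval excluded 0 in 2 of 7 other settings. The dog shares were 30 of 79 (38.0%, 27.3 to 49.6) and 48 of 102 (47.1%, 37.1 to 57.2), a difference of -9.08 points (-22.9 to 5.405). Among dog candidates with at least 10 reads the gap was wider, at 15 of 33 (45.5%) against 20 of 24 (83.3%), or -37.9 points (-56.4 to -12.5).

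**Figure D4:**
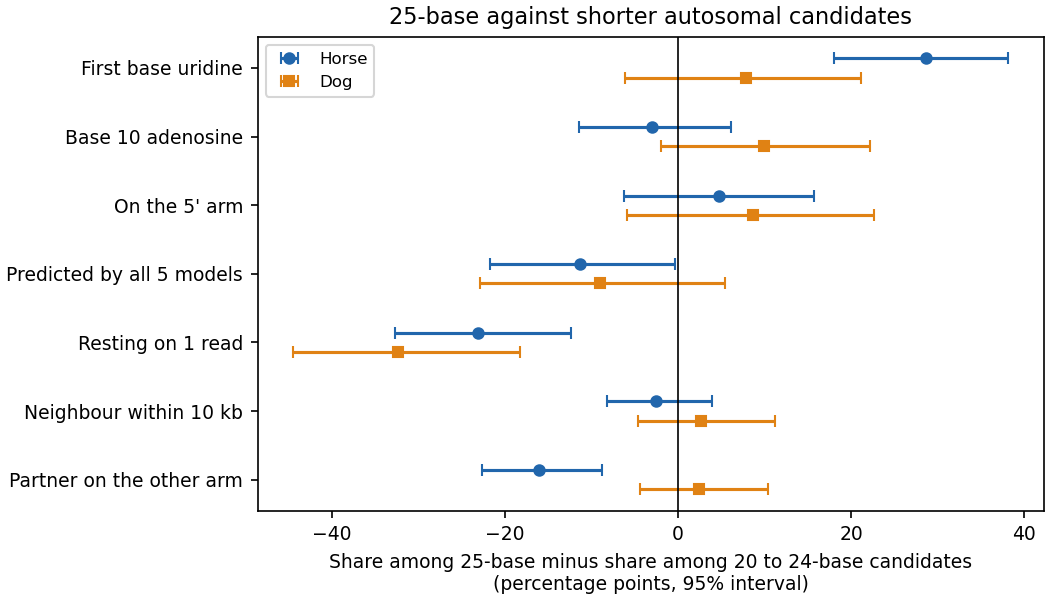
Share among 25-base candidates minus share among 20 to 24-base candidates in percentage points (x axis) for 7 features (y axis), horse as blue circles and dog as orange squares, with Newcombe 95% intervals as bars. Both intervals lie wholly below 0 for candidates resting on 1 read, and the horse interval alone lies above 0 for U at base 1. The horse interval alone lies below 0 for a partner on the other arm and, by a small margin, for being called by all 5 models.

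Folding energies had overlapping intervals in members and shorter candidates. The predicted folding energy per 100 bases had a median of -38.9 kcal/mol (-39.8 to -36.8) in horse members and -38.99 (-40.0 to -37.2) in shorter ones, and of -38.1 (-40.2 to -36.9) against -39.4 (-41.7 to -37.6) in the dog. A median of 80.0% of the bases of a member's mature sequence was paired in both species, and 81.8% and 81.4% in shorter candidates. GC content of the mature sequence had a median of 56.0% in the members of both species, and 57.1% and 58.3% in shorter candidates.

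The hairpin boundaries followed the mature length in a fixed step. The shorter flank between mature sequence and hairpin end was a multiple of 5 bases, 40 at most, in 125 of 126 horse members and in 79 of 79 dog members. The longer flank minus the mature length was also a multiple of 5 in those members. The same held for all 202 horse and 102 dog candidates of 20 to 24 bases. Hairpins of 145 bases, the longest of any listed autosomal candidate of 20 to 25 bases, made up 67 of the horse and 36 of the dog members. The median hairpin length of members was 145 bases in the horse and 135 in the dog, against 130 and 129 for shorter candidates. It is tied in part to the mature length that chose them, and hairpin ends are not measured ends. The flank differed as well. The shorter flank had 40 bases in 53.2% of horse members and 41.1% of shorter horse candidates, and in 45.6% and 31.4% in the dog.

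A listed partner on the other arm was rarer for the horse members. A partner was counted where another candidate's separate mature sequence lay in the same hairpin and at least 10 bases of the 2 matures paired with each other in the predicted fold. This measure was chosen after the data were seen. It was met by 6 of 126 horse members (4.76%, 1.77 to 10.1) and 42 of 202 shorter candidates (20.8%, 15.4 to 27.0), a difference of -16.03 points (-22.7 to -8.77). In the dog it was met by 5 of 79 members (6.33%, 2.09 to 14.2) and 4 of 102 shorter candidates (3.92%, 1.08 to 9.74), a difference of 2.41 points (-4.36 to 10.4). With overlapping hairpins of a length class merged, the horse difference was -8.39 points (-14.6 to -1.67).

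Members with such a partner included known miRNAs. Their names are given from general knowledge of the sequences, since no miRNA table was used, and they were picked after their values were seen. Members left unnamed here and below were not checked and may also be known miRNAs or transfer RNA fragments. The listed lengths were not compared with those of the known miRNAs. Horse Candidate_149, which resembles a miR-449 family 5′ arm, lay at chr21:17151814-17151938 on the plus strand with 218 reads of 11 read sequences, and Candidate_164, with 53 reads, lay on its 3′ arm, 18 base pairs joining the matures. The miR-449 family acts in spermatogenesis and in ciliated cells. Horse Candidate_374, which resembles miR-1307-3p, lay at chr1:26935090-26935214 on the plus strand with 304 reads, and its 5′ arm partner Candidate_386 had 296. Horse Candidate_497, which resembles miR-3065-5p, had 3 reads at chr11:1976386-1976500 on the minus strand, and its 3′ arm partner Candidate_522 also had 3. Dog Candidate_261, which resembles let-7d-3p, lay at chr1:97902012-97902136 on the minus strand with 27 reads of 8 read sequences, and its partner Candidate_262, the let-7d-5p arm, had 72. Let-7 miRNAs are linked to differentiation. These members and their partners are shown together with the seed of the member, bases 2 to 8, in capitals, and with base 1 and base 10 of the partner in capitals:
Horse Candidate_149: aGGCAGTGtgttgttagctggctgc
Horse Candidate_164: GcagccacaActaccctgccactt
Horse Candidate_374: aCTCGGCGtggcgtcggtcgtggta
Horse Candidate_386: CtcgaccggAcctcgaccggctcg
Horse Candidate_497: tCAACAAAatcactgatgctggagt
Horse Candidate_522: TcagcaccaGgatattgttgggg
Dog Candidate_261: cTATACGAcctgctgcctttcttag
Dog Candidate_262: AgaggtagtAggttgcatagtttt

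The most-read horse member also had a partner. Candidate_184 lay at chr22:49647225-49647319 on the minus strand with 1898 reads of 81 read sequences, and Candidate_171 on the other arm of an overlapping hairpin had 5727 reads of 56 read sequences, 17 base pairs joining the matures. Horse Candidate_129, at chr23:28713907-28714041 on the minus strand, had 93 reads and its partner Candidate_132 had 1, joined by 18 base pairs. Horse Candidate_231 on chromosome 7 had 26 reads and its partner Candidate_240 had 1. In the dog, Candidate_9 on chromosome 33 had 52 reads and its partner Candidate_6 had 3, while Candidate_158 on chromosome 16 had 5 and its partner Candidate_167 had 1. Candidate_150 and Candidate_166, also on chromosome 16, were both 25-base candidates and partners of each other, with 1 and 3 reads and 18 base pairs between them. Of the 11 members with a partner, 7 had more reads than it, Candidate_497 had as many, and Candidate_184, Candidate_261 and Candidate_150 had fewer.

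The remaining well-read horse members had no listed partner. Candidate_550 lay at chr12:10370496-10370640 on the minus strand, with 644 reads of 16 read sequences. Candidate_681 lay at chr15:28902994-28903098 on the minus strand, with 360 reads of 8 read sequences. Candidate_451 lay at chr3:22431359-22431503 on the plus strand and had 300 reads from only 4 read sequences. Candidate_432 lay at chr2:40245681-40245825 on the minus strand, with 42 reads of 3 read sequences. All 8 of the named horse members were called by 5 models. The other 118 horse members had between 1 and 32 reads with a median of 3, and 93 of them began with U (78.8%, 70.3 to 85.8).

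The 2 best-read dog sequences resemble miR-199a-5p and miR-199b-5p, miRNAs of smooth muscle and stroma. Candidate_49 at chr20:50410893-50411017 and Candidate_237 at chr7:26812735-26812859, both on the plus strand, listed the same 984 reads of 23 read sequences. Candidate_248 at chr9:55262313-55262457 on the plus strand had 545 reads of 12 read sequences. Both sequences share a seed, in capitals:
Dog Candidate_49: cCCAGTGTtcagactacctgttcag
Dog Candidate_248: cCCAGTGTttagactatctgttcag
They were among the few members that shared one. The 70 distinct dog sequences held 68 seeds and the 117 distinct horse sequences held 116.

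Dog Candidate_38 lay at chr20:43603630-43603744 on the plus strand, with 230 reads of 14 read sequences. Candidate_298 at chr4:50248551-50248695 on the minus strand had 64 reads of 16 read sequences, while Candidate_252 at chr9:4378704-4378848 on the plus strand had 60 reads that were all of 1 sequence. Dog Candidate_17, at chr35:24891362-24891496 on the minus strand with 64 reads of 5 read sequences, reads like the 5′ end of a leucine transfer RNA, again from general knowledge. All 14 loci of these 8 dog sequences had the mature sequence on the 5′ arm. The other 65 dog members had between 1 and 52 reads with a median of 3, and 45 of them began with U (69.2%, 56.6 to 80.1).

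Members seldom lay near each other. A further member within 10000 bases, at a hairpin that did not overlap, was found for 8 of 126 horse members (6.35%, 2.78 to 12.1) and 6 of 79 dog members (7.59%, 2.84 to 15.8). The shares for shorter candidates and their own neighbours were 8.91% and 4.90%, with differences of -2.56 points (-8.22 to 3.96) and 2.69 points (-4.61 to 11.2). Without chromosome 1, 2 of 111 horse members and 18 of 192 shorter candidates had one, a difference of -7.57 points (-12.7 to -1.93). More candidates in a class leave more chances for a neighbour, and the classes differ in size.

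The longest runs of members were copies of 1 sequence. In the dog, Candidate_114, Candidate_113, Candidate_116 and Candidate_112 lay within chr11:14017075-14017827 on the minus strand, and each listed the same 155 reads of 10 read sequences. Their mature starts were 351, 216 and 81 bases apart, all multiples of 27. Shifted by 27 bases against itself, each of the 4 hairpins was identical at 82.7% to 88.2% of positions, where the median over shifts of 10 to 60 bases was between 27.0% and 28.0%. Each hairpin held the mature sequence once, and the 4 hairpins differed from each other. In the horse, Candidate_363, Candidate_379, Candidate_381 and Candidate_393 lay within chr1:69166402-69178995 on the minus strand, with the same 3 reads of 3 read sequences each. Their mature starts were 4200, 4201 and 4048 bases apart, and the 4 hairpins were identical. A further dog set, Candidate_152, Candidate_153 and Candidate_159, listed 100 reads at 3 distant places on chromosome 16. No annotation of either genome was used, so gene, exon and repeat status are not stated for any candidate.

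Few members overlapped another mature sequence. In the horse, Candidate_234 with 2 reads and Candidate_239 with 1 read overlapped by 22 bases on chromosome 7, their 5′ ends 3 bases apart. Candidate_145 overlapped the 23-base Candidate_133 by 15 bases on chromosome 24, with 1 read each. No member shared its 5′ end with a shorter candidate in either species, so the lists show no 25-base entry with a shorter entry from the same start. Each candidate lists only 1 mature sequence, so reads of other lengths from that start need not appear as entries. Overlaps of this kind are not given for shorter candidates.

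No horse member matched a dog member with at most 2 mismatches over 18 bases when starts could differ by up to 2 bases. No such count for shorter candidates is given here, so the result has no background beside it. Of the 116 horse and 68 dog seeds, 2 were found in members of both species, also without a background beside them. For 1 of these seeds the horse and the dog member had 1 read each. For the other the horse member had 7 reads and the dog members 19 and 3. Allowing any length on the other side, 1 sequence match was found. Dog Candidate_9, with 52 reads at chr33:23649304-23649408 on the minus strand, matched the 24-base horse Candidate_736, with 253 reads at chr19:38814113-38814195 on the plus strand. The horse entry begins 1 base earlier, so that the same stretch has another first base in each list:
Dog Candidate_9: gagagatcagaggcgcagagtgcgt
Horse Candidate_736: tgagagatcagaggcgcagagtgc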

How the data were processed

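The lists come from a local miRanalyzer installation, as the deposited column description says. Deposited counts are raw numbers of read sequences and of summed reads at each candidate. The deposited score says how many of 5 models called it, 4 or 5 here. The deposited fraction relates its reads to all reads the authors analysed, rounded to 3 decimals, and served only to bound that total, which was 545429 to 549348 (horse) and 507211 to 512666 (dog). Candidates of the lists summed to 61054 (horse) and 63429 reads (dog). Dog positions are on CanFam 3.1 per the submitters' processing notes, which list this build for the horse as well, so the horse build is not known here. Trimming and mapping are not given in the sources used. Positions were checked to be 1-based. The arm was taken from the shorter flank. Folds came from RNAfold 2.7.2 and everything else from Python 3.11.15 (numpy 2.4.6, pandas 2.3.3, scipy 1.17.1, matplotlib 3.10.9). The intervals, the neighbour search and the sequence match between species were tested on simulated data. Folds, partners, merging, overlaps and the other steps were not. Other settings were a minimum of 10 reads, identical sequences once, merged hairpins, all 5 models, other comparison lengths, other chromosomes and, for neighbours, 3000 and 50000 bases. Members and measures were chosen with earlier results of these data known. Named candidates were, per species, the 8 distinct members with most reads, the longest run within 10000 bases, overlapping members, matches between species and the 3 most-read shorter candidates, beside those said in the text to be picked later.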

Additional observations from a re-analysis of the deposited data

Results flagged for a closer look

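Horse and dog differed in sign for 3 comparisons of 25-base with shorter candidates, each resting on 1 library per species, and the difference between species was not tested. For A at base 10 the difference was -3.03 points in the horse and 9.92 in the dog. For a neighbour within 10000 bases it was -2.56 and 2.69 points. For a partner on the other arm it was -16.03 and 2.41 points, and of these 6 values only the horse partner value has an interval that excludes 0. Some of these signs changed with the setting. The horse base 10 difference was 4.89 points with chromosome X and unplaced sequence included and 1.29 with candidates called by all 5 models only. The dog neighbour difference was -5.21 points with identical sequences counted once and -1.61 with chromosome X and unplaced sequence included, and the dog partner difference was -2.27 with at least 10 reads.

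Outside the autosomes 47 horse and 26 dog candidates also had 25 bases. Of the horse ones 20 lay on chromosome X and 27 on unplaced sequence, with 32806 reads, or 26263 counting identical sequences a single time. Of the dog ones 14 lay on chromosome X and 12 on unplaced sequence, with 14129 reads, or 8917. The first base was U in 33 of the 47 (70.2%) and in 24 of the 26 (92.3%).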

How the results depend on the processing

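Of 124 values computed under other settings, 115 stayed within the counting interval of the reported value. With candidates called by all 5 models only, the first U difference was 17.1 points (-0.597 to 32.8) in the horse and 21.2 in the dog (-1.04 to 39.8), the horse median was 6 reads, and 0 of 45 horse members (up to 6.67%) had a neighbour, a difference of -13.7 points. With at least 10 reads, the dog differences were 39.02 points for the 5′ arm and -37.9 for all 5 models, and 0 of 31 horse members (up to 9.68%) had a neighbour, -9.76 points. With identical sequences once, 0 of 70 dog members (up to 4.29%) had a neighbour, -5.21 points, and with overlapping hairpins merged the horse partner difference was -8.39. The cause was not tested. The horse first U difference was above 0 in each of 8 settings, from 17.1 to 30.1 points, its interval including 0 only with all 5 models. The dog one ran from 5.03 to 21.2 points over 8 settings, its interval excluding 0 in 1. The difference for resting on 1 read kept its sign, with an interval that excluded 0, in 7 of 7 settings in both species. Leaving out known miRNAs by a reference table was planned and not run. No paired analysis was possible because each species has 1 library. Most members rest on few reads, which limits every share given by read class.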
